A study of Mus musculus with 6 samples.

Results

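The MYC network is a group of transcription factors that share the partner protein MAX, and 10 of its genes were examined here: Myc, Mycn, Mycl, Max, Mxd1, Mxd4, Mxi1, Mnt, Mga and Mlx. They were taken by symbol from the gene lists of the deposited tables, and all 10 were found among 32285 mouse genes. The nuclei came from the brains of C57BL/6J mice that had received vectors by in utero electroporation (IUE), in which electric pulses drive DNA into neural stem cells of the embryo, here those of the ganglionic eminences. In both groups, a piggyBac vector expressed FOXR2 with a V5 tag and GFP from the CAG promoter, which is active in most cell types, and a companion vector expressed the luciferase Akaluc with GFP. A transposase expressed for a short time inserted these vectors. Foxr2 alone carried Foxr2 overexpression only, and its tissue held lesions described as not proliferating. Foxr2 p53LOF carried in addition a loss of function of p53, made by Cas9 with a guide RNA against Trp53, and its tissue held high-grade tumors. Mice were killed after birth when neurologic symptoms appeared.

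RNA and open chromatin (ATAC) were read from the same nuclei in 3 libraries, listed as 6 records, and the count tables of 2 libraries were analysed: Foxr2 p53LOF and Foxr2 alone replicate 1. Of Foxr2 alone replicate 2, the peak list was used. After filters, 8413 Foxr2 p53LOF nuclei and 8327 Foxr2 alone nuclei were kept, with medians of 5578 and 3632 UMIs (unique molecular identifiers, each marking 1 captured RNA molecule). No UMI of Cas9 or of the p53 guide was found, so the labelled loss of p53 could not be checked from these vectors. Of the 23 clusters, 21 held at least 97% of their nuclei from 1 library, and 95 cell barcodes were kept in both libraries. Because each genotype had 1 library with counts, there were no replicates: no test was made, every difference is between these libraries or between nuclei of 1 library, and the 95% intervals cover counting error only.

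Marker genes divided the nuclei into immune-like, endothelial-like and neuron-like classes and 4 glia-like classes. The glia-like classes were astrocyte-like, oligodendrocyte-like, OPC-like (precursors of oligodendrocytes) and COP-like (precursors already committed to that fate). None of the 10 genes was used for clustering. RNA levels are in CPM, a gene's UMIs scaled to 1000000 UMIs of the group. A gene is called past 2-fold when its log2 ratio is at least 1 in size and it has at least 5 CPM on at least 1 side.

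As background, MYC, MYCN and MYCL activate transcription as heterodimers with MAX, at the E-box CACGTG and related motifs, and drive ribosome production, metabolism and the cell cycle. MXD1, MXD4, MXI1, MNT and MGA also pair with MAX, and these pairs repress. The MXD proteins and MNT recruit SIN3 corepressors, while MGA belongs to a Polycomb complex. MLX is the partner of the glucose sensors MondoA (Mlxip) and ChREBP (Mlxipl), and also binds some MXD proteins. FOXR2 is known to bind MYC and MAX and to stabilise MYC-family proteins, a change in protein that RNA counts do not measure.

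The E-box itself lies in the 250 bases upstream of the start of 3 members, and these 3 sequences are shown because they hold the motif that the network's own proteins bind. Upstream sequences of 9 members were matched in RefSeq (GRCm38.p6), with 3 entries for Mxi1. Myc had no entry there, so its upstream sequence was not searched. Both strands were read at once because CACGTG is its own reverse complement. Each line reads 5′ to 3′ on the strand of the gene, with the E-box in capitals. The Mxd4 sequence covers chr5:34187711-34187960 on the minus strand, that of Mnt chr11:74830674-74830923 on the plus strand, and that of Mlx chr11:101087040-101087289 on the plus strand.
Mxd4: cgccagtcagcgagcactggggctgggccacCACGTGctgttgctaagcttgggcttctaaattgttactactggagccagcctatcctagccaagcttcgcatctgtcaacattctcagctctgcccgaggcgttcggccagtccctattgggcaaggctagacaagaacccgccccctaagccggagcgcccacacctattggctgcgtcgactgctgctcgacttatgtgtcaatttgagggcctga
Mnt: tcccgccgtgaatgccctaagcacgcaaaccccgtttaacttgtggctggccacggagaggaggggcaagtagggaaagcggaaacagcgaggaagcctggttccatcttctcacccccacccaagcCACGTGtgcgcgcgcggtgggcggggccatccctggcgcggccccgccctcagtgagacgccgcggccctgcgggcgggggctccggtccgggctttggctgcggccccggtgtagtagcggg
Mlx: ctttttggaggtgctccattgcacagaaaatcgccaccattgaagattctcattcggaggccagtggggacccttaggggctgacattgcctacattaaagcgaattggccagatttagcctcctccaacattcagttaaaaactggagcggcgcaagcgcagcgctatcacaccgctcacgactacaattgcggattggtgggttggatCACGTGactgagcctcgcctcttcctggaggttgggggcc
The motif was found in 1978 of 32851 upstream windows of this length (6.02%). Each of the 3 windows overlapped a peak of open chromatin in all 3 libraries. A match is a description of the letters and not evidence of binding.

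Myc, the founding member, had its highest levels among the named classes of Foxr2 p53LOF in COP-like and astrocyte-like nuclei. In Foxr2 p53LOF, its level was 15.2 CPM [13.0, 17.5] in COP-like nuclei, from 182 UMIs in 151 of 1038 nuclei. It was 12.3 CPM [10.4, 14.6] in astrocyte-like nuclei (139 UMIs) and 7.80 CPM [5.84, 10.2] in immune-like nuclei (53 UMIs). Lower values were found in oligodendrocyte-like nuclei, at 3.44 CPM [1.88, 5.77], and in neuron-like nuclei, at 1.86 CPM [1.37, 2.47]. The intervals of COP-like and astrocyte-like nuclei overlapped, as did those of oligodendrocyte-like and neuron-like nuclei, so neither pair can be ordered. OPC-like nuclei gave 1 UMI and endothelial-like nuclei 2.

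ATAC counts on the vector are counts on peaks of the sequence that holds Akaluc and GFP. Both vectors carry GFP, so a count does not show which vector was present. Among the named classes, the share of nuclei with such a count was also highest in COP-like and astrocyte-like nuclei. It was 28.0% in COP-like and 27.8% in astrocyte-like nuclei, and 0.787% in oligodendrocyte-like, 1.36% in immune-like and 0.663% in neuron-like nuclei. Nuclei with a UMI of the proliferation genes Mki67 or Top2a made up 40.1% of COP-like and 34.1% of astrocyte-like nuclei, against 5.51% of oligodendrocyte-like nuclei. Without the Mki67 or Top2a nuclei, Myc in COP-like over oligodendrocyte-like nuclei had a log2 ratio of 2.03, and with them 2.14.

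In Foxr2 alone, few Myc UMIs were read in any class. Astrocyte-like nuclei had 2.60 CPM [0.707, 6.65] from 4 UMIs and neuron-like nuclei 0.454 CPM [0.254, 0.748] from 15 UMIs. Cluster 0, which makes up nearly all of the oligodendrocyte-like nuclei of this library, had 3 UMIs of Myc. Its name is uncertain: it was given by the fourth of 4 rankings of leading genes, chosen after the other 3 had left it unnamed. OPC-like nuclei had 0 Myc UMIs, which still allows up to 8.14 CPM, and endothelial-like nuclei also had 0, which allows up to 44.9 CPM in their 29 nuclei. Immune-like nuclei were at 17.3 CPM [8.28, 31.7] from 10 UMIs, above the intervals of the astrocyte-like, oligodendrocyte-like, OPC-like and neuron-like nuclei.

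**Figure D1:**
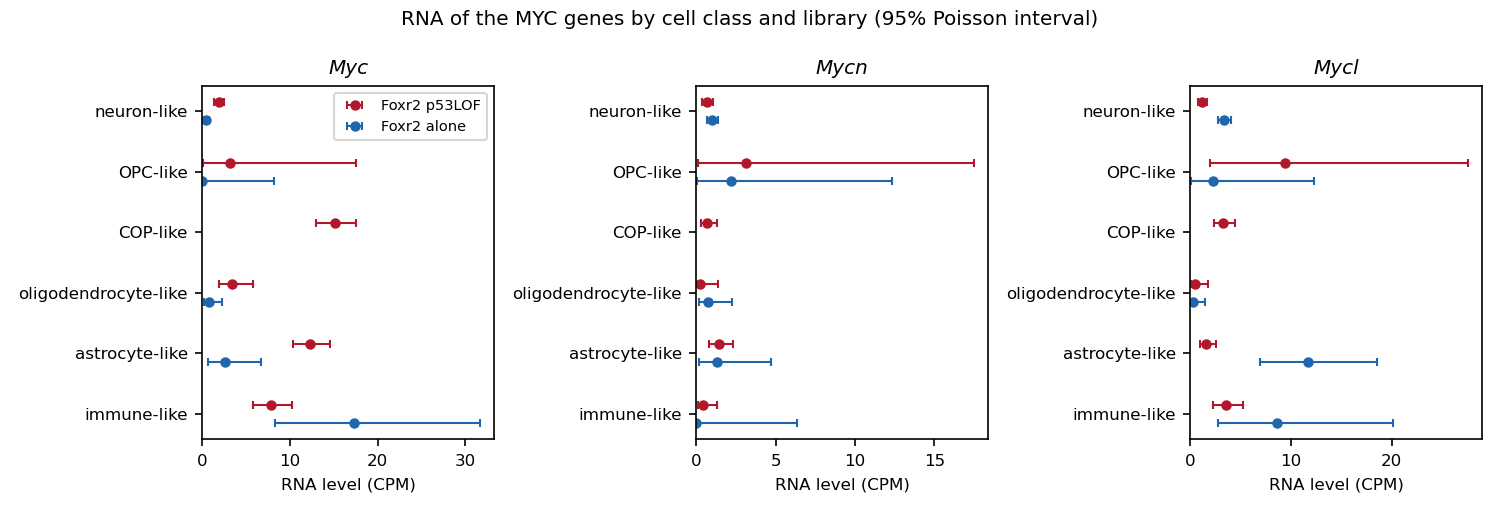
RNA levels of Myc, Mycn and Mycl in CPM by cell class, for Foxr2 p53LOF (red) and Foxr2 alone (blue), with bars for 95% Poisson intervals. Myc sat at 15.2 and 12.3 CPM in COP-like and astrocyte-like nuclei of Foxr2 p53LOF. The points of Mycn stayed under 5 CPM, with an interval up to 17.5 CPM in OPC-like nuclei of Foxr2 p53LOF. The Foxr2 alone point of oligodendrocyte-like nuclei is cluster 0, whose name is uncertain.

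Mycn, which is active in neural progenitors, was near the limit of these counts. In Foxr2 p53LOF, it had 16 UMIs in astrocyte-like nuclei (1.42 CPM), 8 in COP-like nuclei (0.666 CPM) and 17 in neuron-like nuclei (0.672 CPM). In Foxr2 alone, neuron-like nuclei had 33 UMIs (0.998 CPM) and all glia-like nuclei together 6. The intervals of these classes overlapped, so no order of the classes could be read for Mycn. Within the neuron-like nuclei of Foxr2 alone, it was at 4.57 CPM [2.28, 8.17] in cluster 14, from 11 UMIs. In cluster 1 of that library it was at 0.140 CPM [0.0170, 0.506], from 2 UMIs.

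Mycl differed from Myc in where it was read. In Foxr2 p53LOF, its levels were 3.25 CPM [2.31, 4.44] in COP-like, 3.53 CPM [2.26, 5.26] in immune-like, 1.60 CPM [0.947, 2.52] in astrocyte-like and 0.491 CPM in oligodendrocyte-like nuclei (2 UMIs). Of the 24 UMIs in immune-like nuclei, 14 came from the 193 nuclei of cluster 18 and 6 from the 118 nuclei of cluster 21, while clusters 6 and 8, with 1018 and 500 nuclei, were at 0.734 and 0.645 CPM. By class rather than cluster, the highest level from at least 10 UMIs was in the astrocyte-like nuclei of Foxr2 alone. It was 11.7 CPM [6.92, 18.5] from 18 UMIs, an interval that overlapped that of cluster 18. Those astrocyte-like nuclei had a low Myc level, as given above. In neuron-like nuclei, Mycl was at 1.15 CPM [0.768, 1.65] with p53LOF and at 3.39 CPM [2.79, 4.08] without. Its level varied among the neuron-like clusters of Foxr2 alone. It was 1.12 CPM [0.641, 1.82] in the 2033 nuclei of cluster 1, 5.52 CPM in cluster 7 and 7.46 CPM in cluster 10.

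Cluster 15 stayed unnamed. Its highest glial marker median, a log2 fold of 3.35 for COP markers, was less than 1 above that of myeloid markers, at 2.47, and none of its 10 leading genes was a marker. It held 290 nuclei of Foxr2 p53LOF, and its leading genes included the hormone genes Pomc and Prl and the heat shock gene Hspa1a. Its Foxr2 level was 221 CPM [186, 260], against 77.9 CPM in COP-like nuclei, and 19.7% of its nuclei had a vector count. Myc was at 25.7 CPM there, from 17 UMIs in 8 nuclei, and its interval overlapped that of COP-like nuclei. Mnt, a repressor that pairs with MAX, was at 37.8 CPM [24.5, 55.8], above its 17.7 CPM [15.4, 20.2] in COP-like nuclei. The median depth of cluster 15 was 1523 UMIs.

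Max, Mxd4, Mxi1 and Mga were read in more nuclei than Myc in COP-like, astrocyte-like and neuron-like nuclei of Foxr2 p53LOF, whereas Mlx was read in 110 COP-like nuclei, against 151 for Myc. Max, the common partner, ranged in Foxr2 p53LOF from 36.3 CPM [34.0, 38.7] in neuron-like nuclei and 42.0 CPM [35.9, 48.8] in oligodendrocyte-like nuclei to 86.5 CPM [79.7, 93.8] in immune-like nuclei. COP-like and astrocyte-like nuclei lay between, at 67.6 and 73.0 CPM with overlapping intervals. Mga was lowest in oligodendrocyte-like nuclei, at 158 CPM [146, 171], and reached 285 CPM in COP-like and 334 CPM [323, 345] in astrocyte-like nuclei. Mxi1 was lowest in neuron-like nuclei, at 31.8 CPM, and was at 138 CPM in both COP-like and immune-like nuclei. These genes were therefore not ordered like Myc across the classes.

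Mxd1 and Mxd4, which in many tissues rise as cells leave the cell cycle, gave another order. In Foxr2 p53LOF, Mxd1 was at 15.3 CPM [13.2, 17.7] in COP-like nuclei, at a level from 61 UMIs with an interval of [11.5, 19.2] CPM in oligodendrocyte-like nuclei and at 13.7 CPM [11.6, 16.0] in astrocyte-like nuclei, which do not differ beyond their intervals. Its level was 23.0 CPM in immune-like and 7.28 CPM in neuron-like nuclei. Mxd4 was at 57.5 CPM [50.3, 65.3] in oligodendrocyte-like and 51.5 CPM [47.6, 55.8] in COP-like nuclei, and at 22.4 CPM in neuron-like nuclei. In Foxr2 alone, Mxd4 reached 151 CPM [139, 164] in cluster 0 with its 2 companion nuclei, 112 CPM [83.8, 148] in OPC-like and 105 CPM [89.5, 123] in astrocyte-like nuclei. Mxd4, Mxi1 and Mlx overlap antisense genes, and whether the counting used strand is not given in the sources used here.

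**Figure D2:**
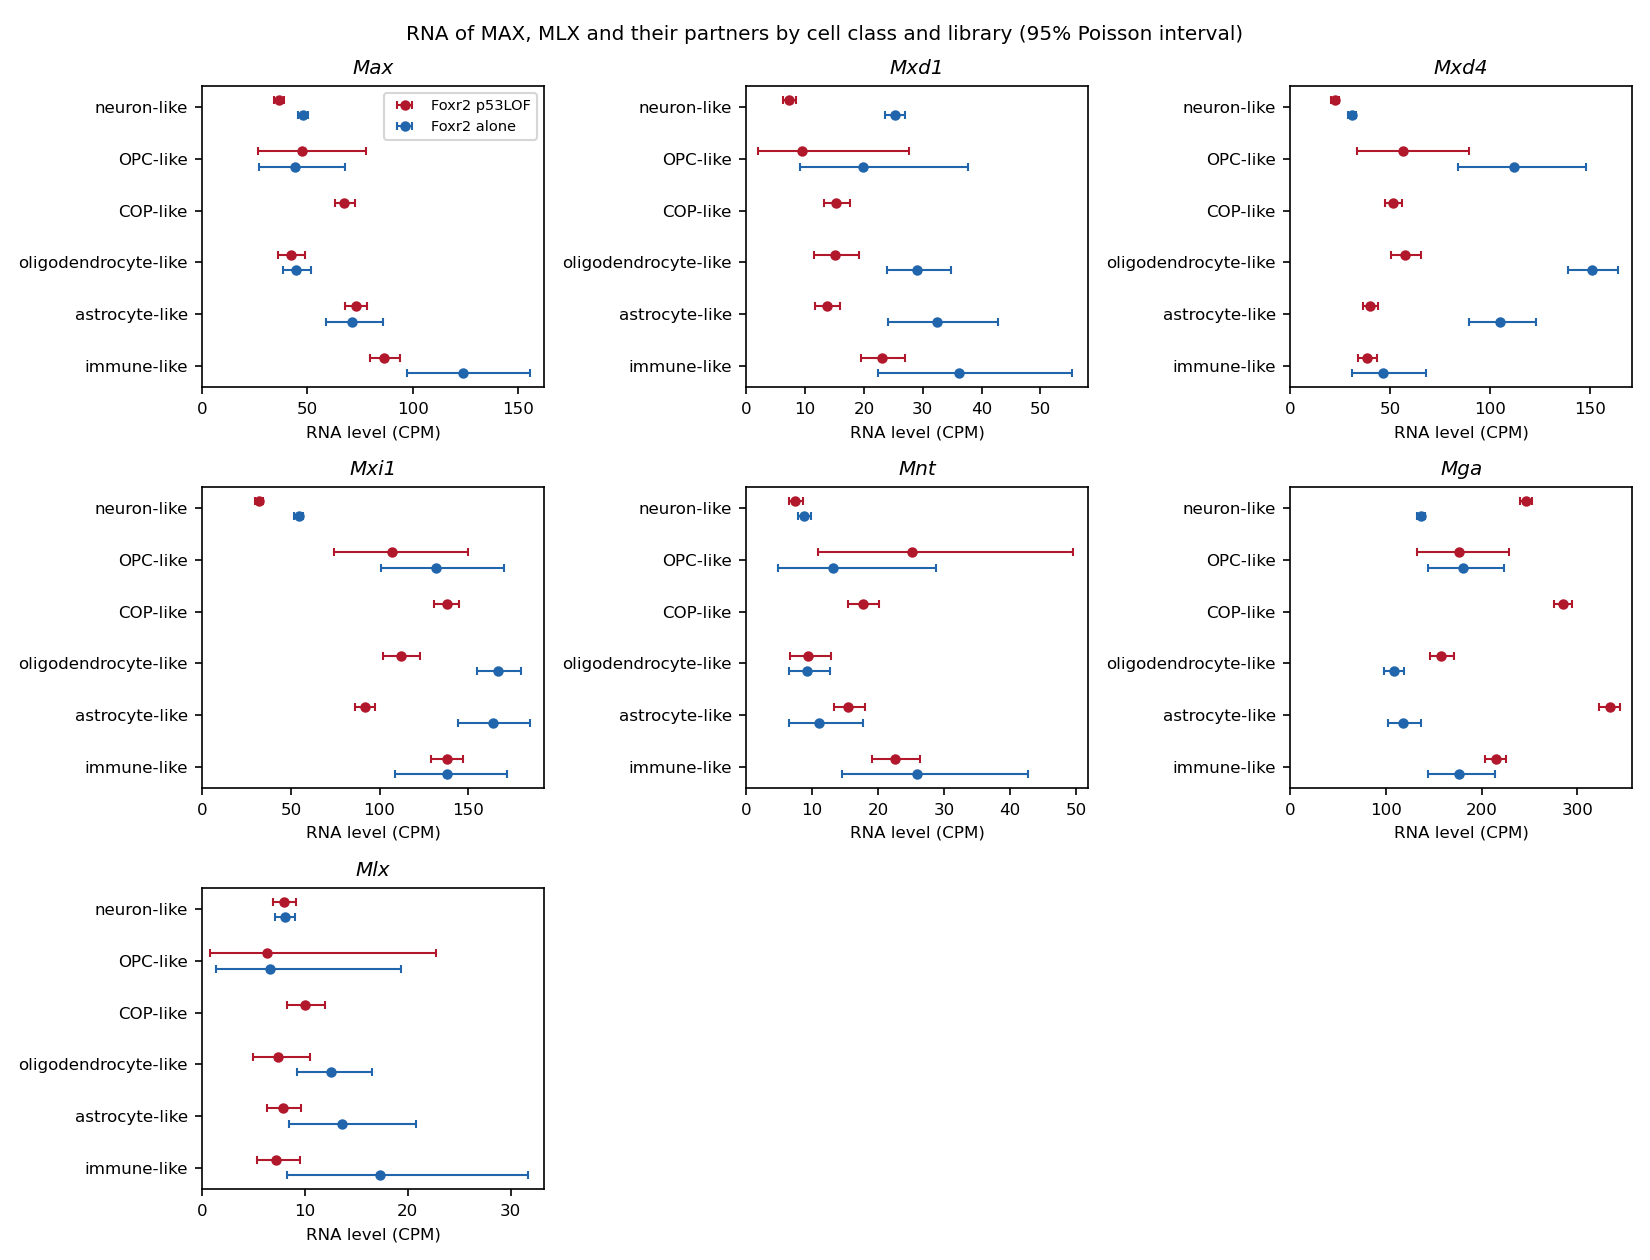
RNA levels of Max, Mxd1, Mxd4, Mxi1, Mnt, Mga and Mlx in CPM by cell class, for Foxr2 p53LOF (red) and Foxr2 alone (blue), with bars for 95% Poisson intervals. Mxd4 reached 151 CPM in the oligodendrocyte-like nuclei of Foxr2 alone (cluster 0, whose name is uncertain), against 57.5 CPM in Foxr2 p53LOF, while Mga was at 334 CPM in the astrocyte-like nuclei of Foxr2 p53LOF and 118 CPM in those of Foxr2 alone.

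The first comparison asked whether nuclei with a detected vector differed in the network from other glia-like nuclei of the same tumor library. In Foxr2 p53LOF, 666 of 3954 glia-like nuclei (16.8%) had at least 1 ATAC count on the vector. A nucleus without a count is not shown to lack the vector. A UMI of GFP, read in 2694 of the 3954, does not show that a nucleus carries it either, since GFP was also read in 801 of 1833 immune-like nuclei. Of the 10 genes, 8 reached 5 CPM, and 0 of the 8 were past 2-fold. Over all 12142 genes tested, 0.346% were past 2-fold higher and 3.01% lower with a vector count, so 0 of 8 is near the background.

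Myc was at 11.5 CPM in nuclei with a vector count (84 UMIs) and at 12.4 CPM in nuclei without (252 UMIs), a log2 ratio of −0.11 [−0.49, 0.25]. Mycn had 9 and 17 UMIs and a log2 ratio of 0.55 [−0.79, 1.80], an interval that spans differences past 2-fold in the upward direction. Mycl had a log2 ratio of −0.05 [−0.97, 0.80]. Max was at 72.5 against 63.4 CPM, with a log2 ratio of 0.19 [0.04, 0.34]. Across the 8 tested genes, ratios lay between −0.11 and 0.20 with a median of 0.07, and the median over all genes tested was 0.08. Foxr2 itself was at 81.5 CPM with and 65.7 CPM without a vector count, a log2 ratio of 0.31 [0.17, 0.45].

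GFP RNA of the vector was 1.32-fold higher with a vector count, at 659 against 501 CPM. The sides also differed in depth and in makeup. Median UMIs were 9439.5 with and 4042.5 without a vector count, and median ATAC counts 14493 and 6235. Oligodendrocyte markers summed to 2711 and 6129 CPM, and nuclei with a UMI of Mki67 or Top2a made up 41.1% and 20.7%. Comparisons within classes follow. The split was also repeated without Mki67 or Top2a nuclei, stratified by class, and in nuclei of at least the median ATAC counts. The part of these differences in the values was not otherwise tested.

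Within COP-like nuclei, 291 had a vector count. Of the 10 genes, 8 were tested and 0 were past 2-fold, where 0.587% of all genes were past 2-fold higher and 0.885% lower. Myc was at 14.1 CPM with and 15.6 CPM without a vector count, a log2 ratio of −0.15 [−0.65, 0.32]. Mga, at 264 against 295 CPM, had a log2 ratio of −0.16 [−0.27, −0.05], and it was the member with an interval off 0. Within astrocyte-like nuclei, 361 had a vector count, 8 genes were tested and 0 were past 2-fold, where 0.379% of all genes were past 2-fold higher and 1.35% lower. Myc was at 8.98 CPM with a vector count (32 UMIs) and at 13.9 CPM without (107 UMIs), a log2 ratio of −0.63 [−1.25, −0.05], lower in the nuclei with a vector count. GFP UMIs were read in 1169 of the 1299 astrocyte-like nuclei, and median ATAC counts were 13057 with and 8198.5 without a vector count.

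**Figure D3:**
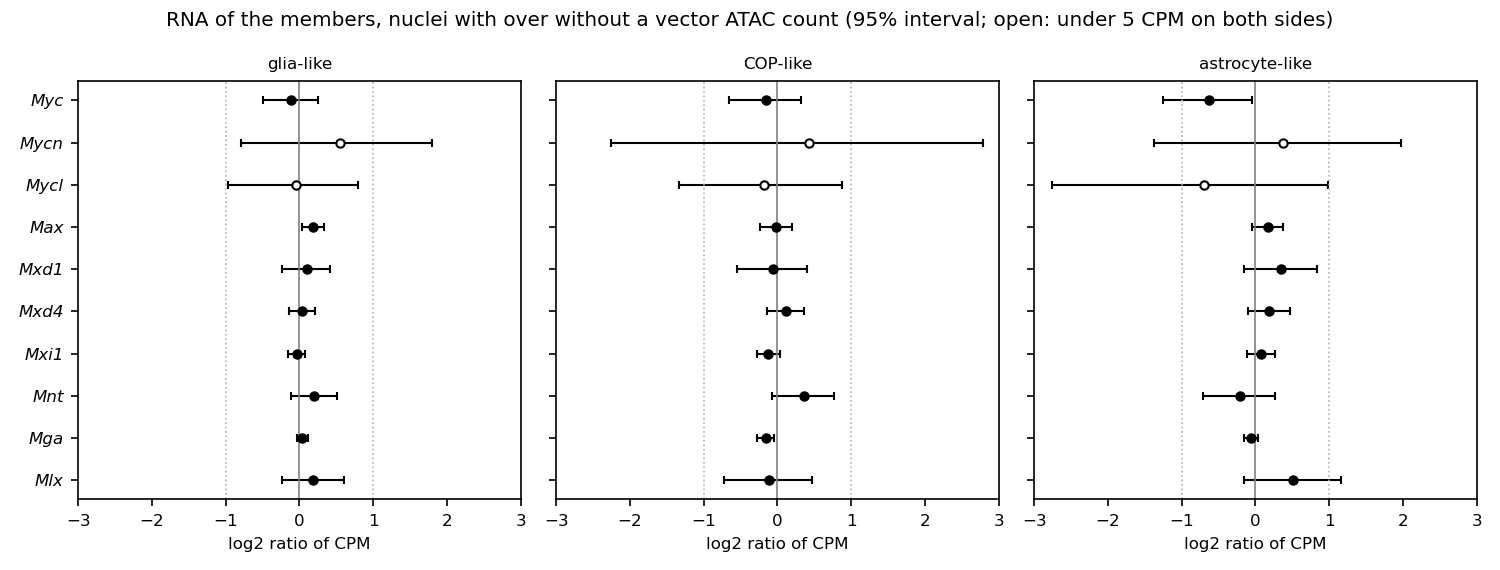
Log2 ratios of CPM between nuclei with and without an ATAC count on the vector, for glia-like, COP-like and astrocyte-like nuclei of Foxr2 p53LOF, with 95% intervals and dotted lines at 2-fold. Filled points had at least 5 CPM on 1 side, and all of them lay within 2-fold, from −0.63 for Myc in astrocyte-like nuclei to 0.51 for Mlx in the same class.

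The answer for Myc changed with the measure of the vector. With at least 1 UMI of GFP in place of an ATAC count, Myc was at 13.5 CPM in 2694 glia-like nuclei with GFP and at 4.35 CPM in 1260 without, a log2 ratio of 1.64 [0.95, 2.41]. Over all genes, 13.8% were past 2-fold higher and 6.76% lower with GFP. Stratified by class, Myc was at 1.02, where 2.61% of all genes were past 2-fold higher and 0.712% lower. Within COP-like nuclei the Myc ratio was 1.78 [0.40, 3.67], with 4 Myc UMIs in the 113 nuclei without GFP. Within astrocyte-like nuclei it was 0.76 [−0.49, 2.41], with 5 Myc UMIs in the 130 nuclei without GFP, and within oligodendrocyte-like nuclei −0.22 [−2.15, 1.51]. Median UMIs were 7205 with and 2567.5 without GFP, and the part of depth was not tested. The immune-like nuclei with GFP UMIs belong to a class in which 25 nuclei had an ATAC count on the vector, and GFP was also read in 1173 of 2261 neuron-like nuclei, a class in which 15 had one.

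The other genes of the network were grouped into 2 lists chosen with earlier results of these data known. List 1 held 18 relatives, cofactors and regulators of MYC, such as Trrap, Sin3a and the ubiquitin ligase gene Fbxw7. List 2 held 23 genes of ribosome making and growth that are known MYC targets, such as the nucleolar genes Ncl, Npm1 and Fbl. In glia-like nuclei, 0 of 16 tested genes of list 1 and 0 of 23 of list 2 were past 2-fold by vector count, against 0.346% of all genes higher and 3.01% lower. The log2 ratios of list 2 ran from 0.04 to 0.59, with a median of 0.27 against 0.08 over all genes. Within astrocyte-like nuclei, they ran from −0.33 to 0.36, with a median of −0.07 against −0.02 over all genes. There, 0 of 16 genes of list 1 were past 2-fold. Within COP-like nuclei, the ratios of list 2 ran from −0.24 to 0.47, with a median of 0.19 against 0.02 over all genes. In that class 1 of 17 tested genes of list 1 was past 2-fold, Mlxipl, at 2.16 CPM with and 5.42 CPM without a vector count, where 0.885% of all genes were past 2-fold lower.

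The second comparison set COP-like against oligodendrocyte-like nuclei of Foxr2 p53LOF, classes named by markers, with many and few vector counts. A vector count was read in 28.0% and 0.787% of these nuclei, and Foxr2 was at 77.9 and 28.0 CPM. Whether the classes share a lineage in this tissue was not tested. Of 8 genes tested, 1 was past 2-fold, Myc, which was 4.41-fold higher in COP-like nuclei, with [1.36, 3.04] for its log2 ratio. Over all 12239 genes tested, 30.4% were past 2-fold higher and 9.76% lower, so 1 of 8 is below that background. Mnt had a log2 ratio of 0.92 [0.42, 1.46], Mga of 0.85 [0.73, 0.98] and Max of 0.69 [0.45, 0.93]. Mxd1 and Mxd4 had ratios of 0.03 [−0.39, 0.48] and −0.16 [−0.38, 0.07]. Mycl was below 5 CPM on both sides, with 39 against 2 UMIs and a log2 ratio of 2.73 [0.78, 5.82].

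The genes above 10 CPM had a median log2 ratio of 0.30 in this comparison, and with ratios centred on it Myc was at 1.84, Mxd4 at −0.45, Mxd1 at −0.26 and Mxi1 at 0.00. Mnt lay near the threshold: it was past 2-fold under some settings, with a log2 ratio of 1.15 when at least 1000 genes and 1000 fragments were required. Over the 8 genes the median log2 ratio was 0.56, against 0.46 over all genes tested. COP-like nuclei also held more RNA of myeloid markers, at 444 against 134 CPM, and more UMIs per nucleus, with medians of 9980.5 and 2447.5. In COP-like against oligodendrocyte-like nuclei, OPC markers summed to 3838 against 629 CPM and COP markers to 3183 against 1404 CPM. Oligodendrocyte markers summed to 4762 against 19760 CPM, and T and NK cell markers to 141 against 17.7 CPM. The part of these in the ratios was not tested.

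Most genes of list 2 were higher in COP-like nuclei. Of its 23 genes, 21 were past 2-fold higher in COP-like nuclei and 0 lower, against 30.4% and 9.76% of all genes, with a median log2 ratio of 1.47 against 0.46. Rcc1, which loads the small GTPase Ran, was at 25.3 against 4.91 CPM, and Ppan, a factor of ribosome assembly, at 37.1 against 8.59 CPM. In list 1, 7 of 16 tested genes were past 2-fold higher and 0 lower, which is closer to those shares, with a median of 0.94. They were led by the kinase genes Pim1, at 36.0 against 4.67 CPM, and Aurka, at 7.58 against 1.72 CPM. The shares of nuclei with a UMI of Mki67 or Top2a and the median UMIs of both classes are given above. Such a UMI is not a direct measure of cycling, and the part of both in these counts was not tested.

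Promoter accessibility was higher in COP-like than in oligodendrocyte-like nuclei for 4 of the 10 members and lower for 5, by intervals off 0, and that of Mlx, with a log2 ratio of −0.21 [−0.49, 0.08], did not differ beyond its interval. Of all 19197 genes with a promoter peak, 32.4% were higher and 30.7% lower by the same rule, so differences of this kind were common. Values are fragments in promoter peaks per 1000000 fragments in all peaks of the group. A promoter peak overlaps the span from a gene's first to its last annotated start, widened by 1 kb on either side. For Mxi1, whose starts lie far apart, this includes peaks between them. Myc was at 74.6 [68.5, 81.1] in COP-like and 33.0 [27.7, 39.1] in oligodendrocyte-like nuclei, a log2 ratio of 1.17 [0.90, 1.46]. Mycl was at 43.3 against 9.25, a log2 ratio of 2.23 [1.74, 2.76]. Mycn and Mga were also more open, with log2 ratios of 0.53 [0.14, 0.93] and 0.50 [0.20, 0.81]. The promoters of Mxd1 and Mxd4 were less open, with log2 ratios of −0.64 [−0.82, −0.47] and −0.65 [−0.83, −0.48], and that of Mxi1 likewise at −0.53 [−0.68, −0.37].

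The RNA ratios of Mxd1 and Mxd4 given above had intervals that held 0, and centring, which shifts every gene alike, moved them to −0.26 and −0.45. The promoter ratios were not centred, so the centred RNA ratios are not on a like scale with them. Mnt was higher in RNA and slightly less open, with a promoter log2 ratio of −0.34 [−0.47, −0.20]. Max behaved in the same way, with a promoter log2 ratio of −0.30 [−0.50, −0.09].

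**Figure D4:**
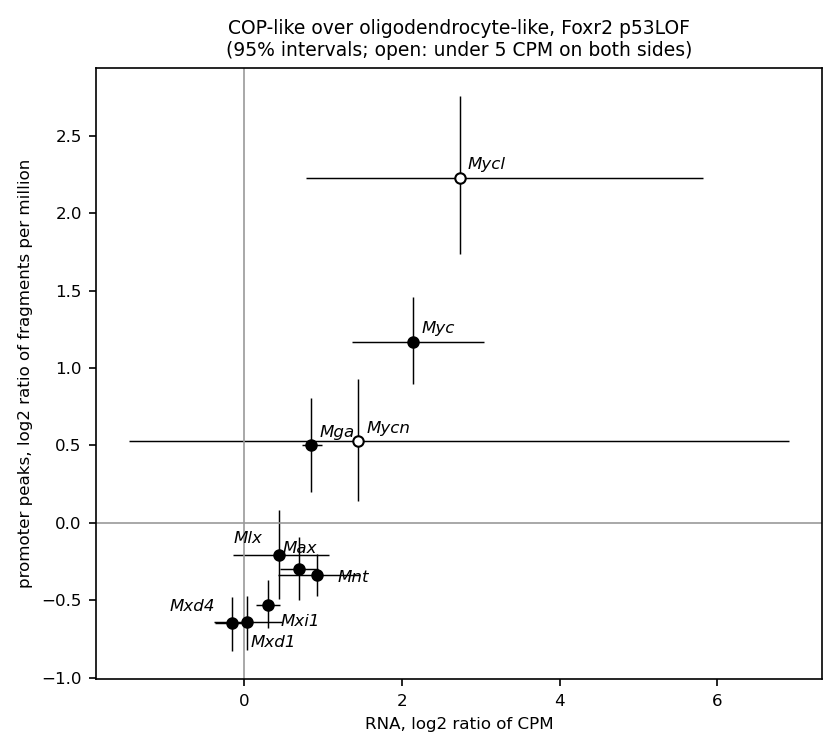
Log2 ratios between COP-like and oligodendrocyte-like nuclei of Foxr2 p53LOF, with RNA (CPM) on the x axis and promoter peaks (fragments, scaled to all peak fragments) on the y axis, and bars for 95% intervals. Myc (2.14 and 1.17) and Mycl (2.73 and 2.23, open because it was under 5 CPM) were higher on both axes, whereas Mxd1 and Mxd4 were lower in promoter fragments at −0.64 and −0.65 with RNA ratios of 0.03 and −0.16, which were −0.26 and −0.45 when centred. The promoter ratios were not centred.

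Every member had at least 1 promoter peak in each of the 3 peak lists. In mm10, the genes on the plus strand are Myc (chr15:61985391-61990374), Mycl (chr4:122995652-123002485), Mxi1 (chr19:53310518-53375810), Mnt (chr11:74830920-74845725), Mga (chr2:119897228-119969581) and Mlx (chr11:101087277-101092207). Those on the minus strand are Mycn (chr12:12936093-12941914), Max (chr12:76937269-76962201), Mxd1 (chr6:86647042-86669161) and Mxd4 (chr5:34173883-34187720). Myc had 3 promoter peaks in each of the 3 libraries, and in Foxr2 p53LOF they were chr15:61984928-61985801, chr15:61986722-61987584 and chr15:61987747-61988562. The first covers the annotated start of the gene at 61985391, the second covers its last annotated start at 61987422, and the third lies within the gene. Mycn and Mnt had 2 promoter peaks in each library. Mycl had 2 in Foxr2 p53LOF, chr4:122995355-122996286 and chr4:122996848-122997674, and 1 in each of the Foxr2 alone libraries. Mxi1 had 4 in Foxr2 p53LOF and 5 in each Foxr2 alone library, over starts that span 53310518 to 53330408 of chromosome 19. The remaining 5 genes had 1 peak in each library.

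Across classes of Foxr2 p53LOF, the Myc promoter was at 85.1 [78.4, 92.2] on this scale in astrocyte-like, 78.1 [71.4, 85.2] in immune-like and 50.3 [45.9, 55.0] in neuron-like nuclei. OPC-like nuclei had 116 [79.9, 162], and their Myc RNA, 1 UMI in 93 nuclei, had an interval of [0.0797, 17.5] CPM that held the COP-like level. In Foxr2 alone, where peaks were called separately, the values were 83.9 [71.2, 98.1] in astrocyte-like, 106 [90.3, 124] in immune-like and 34.1 [32.0, 36.3] in neuron-like nuclei. The Mycn promoter was at 2.84 [1.70, 4.47] in the immune-like nuclei of Foxr2 p53LOF and at 27.0 [23.4, 31.0] in COP-like nuclei, although Mycn RNA was near 0 in both.

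By vector count, the Myc promoter in glia-like nuclei was at 76.6 [69.6, 84.1] with and 67.4 [63.0, 72.0] without, a log2 ratio of 0.18 [0.02, 0.35]. Stratified by class, the direction turned, to −0.08. Within COP-like and astrocyte-like nuclei it was −0.11 [−0.36, 0.14] and −0.05 [−0.29, 0.20]. With GFP UMIs in place of ATAC counts it was 0.65 in all glia-like nuclei and 0.08 stratified by class.

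The third comparison set the libraries side by side within a class. For astrocyte-like nuclei, 5 of 9 tested genes were past 2-fold, 2 higher and 3 lower in Foxr2 p53LOF, where 22.8% of all genes were past 2-fold higher and 29.3% lower. Myc was at 12.3 against 2.60 CPM, a log2 ratio of 2.25 [0.86, 4.14]. Mga was 2.83-fold higher, at 334 against 118 CPM, with [1.28, 1.72] for its log2 ratio. Mycl was at 1.60 against 11.7 CPM, a log2 ratio of −2.87 [−3.90, −1.84]. Mxd4 was at 39.9 against 105 CPM, a log2 ratio of −1.40 [−1.66, −1.13], and Mxd1 at 13.7 against 32.4 CPM, a log2 ratio of −1.25 [−1.72, −0.76]. Max was at 73.0 against 71.4 CPM and did not differ beyond its interval, with a log2 ratio of 0.03 [−0.26, 0.33].

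The astrocyte-like nuclei of the libraries lay in different clusters, mostly cluster 4 in Foxr2 p53LOF and cluster 11 in Foxr2 alone. Astrocyte markers summed to 3676 CPM in the first and 12688 CPM in the second, OPC markers to 2559 and 657 CPM, and neuron markers to 533 and 2445 CPM. Median UMIs were 7545 and 2624, and nuclei with a UMI of Mki67 or Top2a made up 34.1% and 1.39%. The ratios of the members between these classes were also computed without Mki67 or Top2a nuclei. Foxr2 was at 77.3 against 18.8 CPM. A smaller cluster of Foxr2 p53LOF, cluster 20, had 11817 CPM of astrocyte markers, against 12731 CPM in cluster 11, and 7 of its 125 nuclei had a vector count. Cluster 20 differed from cluster 11 in myeloid markers (429 against 71.1 CPM), T and NK cell markers (145 against 12.4 CPM), neuron markers (459 against 2451 CPM) and oligodendrocyte markers (2023 against 1020 CPM). Mki67 or Top2a was read in 21.6% of its nuclei, against 1.17%. The part of these in the ratios was not tested. Cluster 20 was compared with both, a step chosen after the data were seen.

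Between cluster 4 and cluster 20, within Foxr2 p53LOF, 1 of 9 genes was past 2-fold, Mycl, lower in cluster 4 with a log2 ratio of −2.15 [−3.82, −0.08] from 14 and 4 UMIs. These clusters also differed in oligodendrocyte markers (462 against 2023 CPM), myeloid markers (129 against 429 CPM), T and NK cell markers (18.7 against 145 CPM) and median UMIs (7811 against 4066), and the part of this was not tested. Over all genes, 17.9% were past 2-fold higher and 21.3% lower. Myc was at 12.1 CPM in cluster 4 and 16.1 CPM in cluster 20, a log2 ratio of −0.41 [−1.30, 0.63]. Between cluster 20 and cluster 11 of Foxr2 alone, 2 of 9 genes were past 2-fold higher and 1 lower, where 16.8% of all genes were higher and 20.9% lower. Myc was at 16.1 CPM (11 UMIs) against 1.96 CPM (3 UMIs), a log2 ratio of 3.04 [1.12, 5.52], and Mga had a ratio of 1.09 [0.78, 1.40]. Mycl was the lower gene, at 5.86 against 11.7 CPM, with an interval of its log2 ratio that held 0, [−3.03, 0.60]. Mxd4 had a ratio of −0.84 [−1.38, −0.33]. Foxr2 was at 110 CPM in cluster 20 against 18.9 CPM in cluster 11. Between clusters 4 and 20, list 1 had 4 of 17 genes higher and 4 lower, from Aurka at 5.96 against 1.46 CPM and Skp2 at 42.4 against 13.2 CPM to Mlxipl at 1.04 against 7.32 CPM and Bmyc at 5.20 against 14.6 CPM. List 2 had 4 of 23 higher, led by Gnl3 and Wdr43, at 149 against 52.7 CPM and 204 against 79.1 CPM, and 1 lower, Srm, at 9.84 against 22.0 CPM.

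In list 2, 12 of 23 genes were past 2-fold higher in the astrocyte-like nuclei of Foxr2 p53LOF and 0 lower, against 22.8% and 29.3% of all genes, with a median log2 ratio of 1.15 against −0.05. Ppan was at 31.1 against 5.84 CPM and Cad, a gene of pyrimidine synthesis, at 12.9 against 2.60 CPM. List 1 had 7 of 17 tested genes higher and 4 lower, the latter below the share over all genes. The higher genes were led by Skp2, at 40.6 against 11.7 CPM, and Ep400, at 287 against 84.3 CPM. The lower genes were led by Bmyc, a relative of Myc that lacks its C-terminal DNA-binding part, at 5.77 against 66.2 CPM, and by Mlxipl, at 1.42 against 13.0 CPM. With cluster 20 in place of cluster 4, 11 of the 23 genes of list 2 were past 2-fold higher than in cluster 11, and 0 were lower, against 16.8% and 20.9% of all genes. Ldha, which makes lactate, was at 132 against 39.8 CPM there, and Cad at 10.3 against 2.61 CPM. In list 1, 2 of 16 genes were higher in that comparison, a share below that of all genes, Pim1 at 46.9 against 14.4 CPM and Ruvbl2 at 19.0 against 8.48 CPM, and Bmyc was lower at 14.6 against 65.9 CPM.

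**Figure D5:**
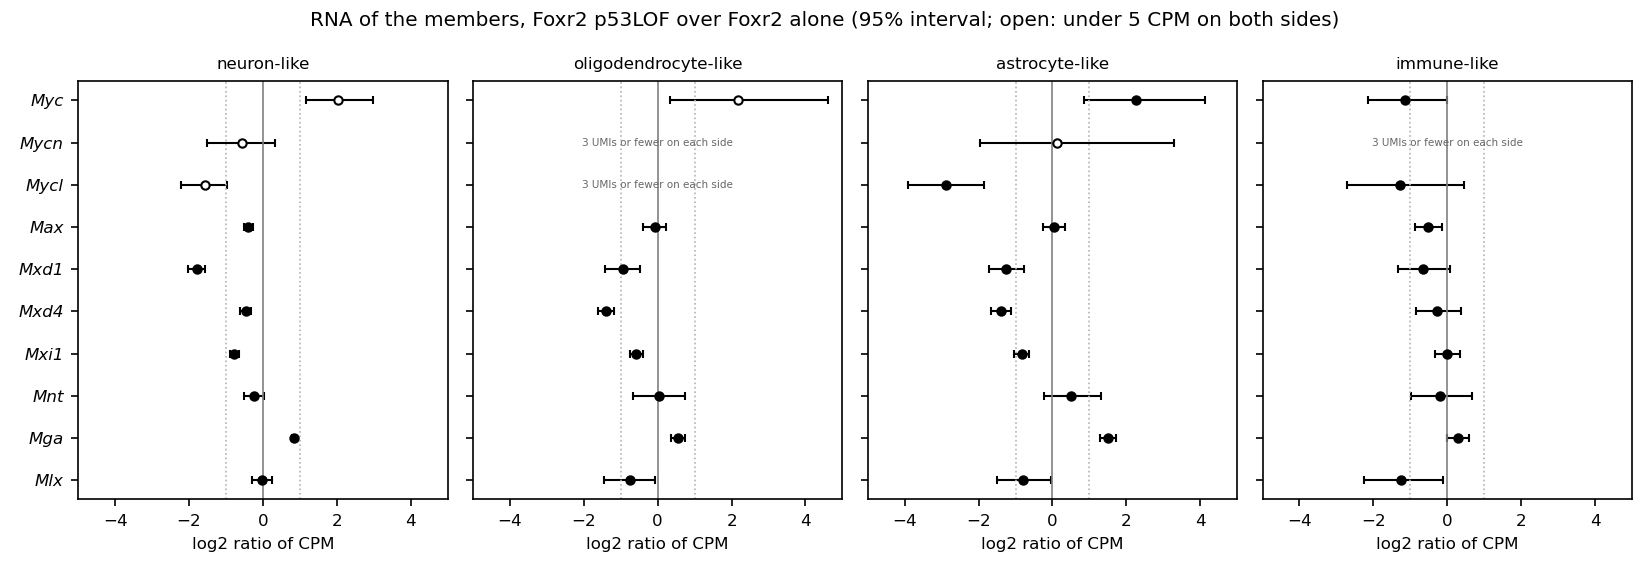
Log2 ratios of CPM between Foxr2 p53LOF and Foxr2 alone for the 10 genes in neuron-like, astrocyte-like, oligodendrocyte-like and immune-like nuclei, with 95% intervals and dotted lines at 2-fold. Mxd1 ran from −1.79 for neurons to −0.66 for immune cells, Mxd4 from −1.40 for astrocytes to −0.27 for immune cells, and Mga was lowest at 0.29 for immune cells; the oligodendrocyte-like panel sets cluster 3 against cluster 0, whose name is uncertain.

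For neuron-like nuclei, 1 of 7 tested genes was past 2-fold, where 14.6% of all genes were past 2-fold higher and 20.6% lower in Foxr2 p53LOF. It was Mxd1, at 7.28 CPM [6.26, 8.41] against 25.2 CPM [23.5, 27.0], a log2 ratio of −1.79 [−2.03, −1.56]. Mxi1 and Max had log2 ratios of −0.77 [−0.89, −0.65] and −0.39 [−0.51, −0.28], and Mga of 0.84 [0.79, 0.90]. Myc had 47 against 15 UMIs, both under 5 CPM, and a log2 ratio of 2.03 [1.17, 2.98]. Mycl, also under 5 CPM, had a ratio of −1.56 [−2.21, −0.96], and its level varied among the clusters of Foxr2 alone as given above. The neuron-like nuclei of the libraries lay in different clusters, mostly cluster 2 in Foxr2 p53LOF and cluster 1 and 5 others in Foxr2 alone. Leading genes included Adora2a in cluster 1 and Vip and Sst in cluster 14 of Foxr2 alone. They included Nkx2-1 and Sim1 in cluster 17 and Slc6a3 and Th in cluster 19 of Foxr2 p53LOF. Mxd1 was at 33.8 CPM in cluster 1 and 16.2 CPM in cluster 14 of Foxr2 alone, and at 6.92 CPM in cluster 2 of Foxr2 p53LOF. OPC markers summed to 2606 and 1198 CPM, astrocyte markers to 217 and 647 CPM, and nuclei with a UMI of Mki67 or Top2a made up 10.5% and 2.97%. Foxr2 RNA was at 11.8 and 2.60 CPM in the neuron-like nuclei, and GFP RNA at 76.4 and 19.2 CPM. Apart from a repeat for the members without Mki67 or Top2a nuclei, the part of these in the ratios was not tested. In list 1, 0 of 14 genes were higher and 1 was lower, Bmyc, at 15.3 against 48.9 CPM. In list 2, 0 of 22 were higher and 2 lower, Srm at 3.64 against 10.1 CPM and Fbl at 8.86 against 17.9 CPM.

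For oligodendrocyte-like nuclei, cluster 3 of Foxr2 p53LOF was set against cluster 0 of Foxr2 alone. If cluster 0 is left unnamed, 2 nuclei of Foxr2 alone remain in the class and no value can be given. Of 7 genes, 1 was past 2-fold, Mxd4, at 57.5 against 151 CPM, a log2 ratio of −1.39 [−1.62, −1.17], where 14.5% of all genes were past 2-fold higher and 22.4% lower. Mxd1 lay near the threshold with −0.95 [−1.43, −0.49], and it was past 2-fold when doublets were kept, at −1.14, and with minimums of 1000 genes and fragments, at −1.29. With those minimums Mlx was also past 2-fold, at −1.04. Myc had 14 against 3 UMIs and a log2 ratio of 2.17 [0.33, 4.61], under 5 CPM on both sides. Oligodendrocyte markers summed to 19760 and 13177 CPM, neuron markers to 199 and 1000 CPM, OPC markers to 629 and 122 CPM, and COP markers to 1404 and 895 CPM. Mki67 or Top2a was read in 5.51% and 0.198% of the nuclei, and median UMIs were 2447.5 and 1172. Foxr2 RNA was at 28.0 and 6.36 CPM, and GFP RNA at 189 and 58.7 CPM. Apart from repeats for the members without Mki67 or Top2a nuclei and with the minimums of 1000, the part of these differences was not tested. In list 1, 2 of 15 genes were higher, Trrap at 90.4 against 19.6 CPM and Usp28 at 19.4 against 8.65 CPM, and 3 lower, led by Bmyc at 5.89 against 40.4 CPM and Ruvbl1 at 8.35 against 20.1 CPM. In list 2, 3 of 22 were higher, led by Cad at 5.40 against 1.27 CPM and Nop2 with a log2 ratio of 1.17, and 0 lower.

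For immune-like nuclei, 3 of 9 genes were past 2-fold, all lower in Foxr2 p53LOF, where 16.7% of all genes were past 2-fold higher and 23.2% lower. Mycl was at 3.53 against 8.63 CPM (5 UMIs in Foxr2 alone), a log2 ratio of −1.29 [−2.71, 0.46]. Mlx was at 7.21 against 17.3 CPM, a log2 ratio of −1.26 [−2.26, −0.11], and Myc at 7.80 against 17.3 CPM, a log2 ratio of −1.15 [−2.14, −0.01]. Myc had the opposite direction in astrocyte-like nuclei, a contrast that was not tested. With at least 1000 genes and 1000 fragments per nucleus, the Myc ratio of immune-like nuclei was 0.04, so its direction depended on these minimums. Myc was also within 2-fold with limits on peak counts, at −0.89, with Leiden resolution 1, at −0.87, and with doublets kept, at −0.30. Mlx was at −0.44 with doublets kept. Mlx was also within 2-fold with the minimums of 1000, at −0.85, and with the mean CPM of nuclei, at −0.84. The immune-like nuclei lay in clusters 6, 8, 18 and 21 of Foxr2 p53LOF and in cluster 12 of Foxr2 alone, apart from a few nuclei, and clusters 18 and 21 held 20 of the 24 Mycl UMIs of Foxr2 p53LOF. Myeloid markers summed to 5768 and 10587 CPM, T and NK cell markers to 1651 and 589 CPM, and neuron markers to 266 and 992 CPM. Mki67 or Top2a was read in 23.7% of the Foxr2 p53LOF nuclei and in 0 of the 426 others, which allows up to 0.704%, and median UMIs were 2681 and 1135. Apart from repeats for the members without Mki67 or Top2a nuclei and with the minimums of 1000, their part in the ratios was not tested. In list 1, 0 of 17 genes were higher and 1 was lower, Bmyc, at 13.0 against 57.0 CPM. In list 2, 3 of 23 were higher, led by Nop2 at 19.9 against 3.45 CPM and Ldha at 96.5 against 39.7 CPM, and 2 lower, Srm at 6.62 against 19.0 CPM and Fbl at 19.9 against 41.4 CPM.

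Of the members not given above for every class, Mxd4 had log2 ratios of −0.47 [−0.62, −0.32] for neurons and −0.27 [−0.85, 0.36] for the immune class, where it was past 2-fold with the minimums of 1000 genes and fragments, at −1.03 [−1.52, −0.51]. Mlx was at −0.02 [−0.30, 0.25] in neuron-like, −0.80 [−1.50, −0.04] in astrocyte-like and −0.76 [−1.46, −0.07] in oligodendrocyte-like nuclei, and the first of these turned to 0.03 with the mean CPM of nuclei. Mga was at 0.55 [0.37, 0.73] in oligodendrocyte-like and 0.29 [0.00, 0.59] in immune-like nuclei, and Mxd1 at −0.66 [−1.32, 0.07] in immune-like nuclei. Mxi1 was at −0.83 [−1.03, −0.63] in astrocyte-like, −0.58 [−0.75, −0.40] in oligodendrocyte-like and 0.00 in immune-like nuclei. Max was at −0.08 in oligodendrocyte-like and −0.52 [−0.88, −0.15] in immune-like nuclei, the latter turning to 0.40 with the minimums of 1000. Mnt was at −0.24, 0.49, 0.03 and −0.20 in neuron-like, astrocyte-like, oligodendrocyte-like and immune-like nuclei, with intervals that held 0. How many of all genes share a direction over the classes was not counted, so nothing particular to the members is read from these directions. The 4 classes come from the same pair of libraries and are not independent, so library and genotype cannot be told apart.

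The genes with profiles most like those of the members were found over 10 groups, each a class of a library with at least 100 nuclei, among 16270 genes. Pearson's r of log2(CPM + 1) is given as a description, since the groups share 2 libraries and differ in depth. The genes named are the highest of 16270 over 10 groups, so a high r can arise from that selection. Nearest to Myc were Fosl2 (r = 0.979), a partner of JUN in the AP-1 factor, Shq1 (0.970), which assembles small nucleolar ribonucleoproteins, and Gpc2 (0.964), a cell surface proteoglycan. Nearest to Mxd4 were Htra1 (0.977), a secreted protease, Selenos (0.967) and Gstk1 (0.947). For Mycl they were Rgl1 (0.916), Mrps25 and Gm15927 (both 0.907). For Mycn they were Otoa (0.970), Gpx7 (0.939) and Adgra2 (0.934), with Mycn itself read from few UMIs in each group. Myc was likewise read from few UMIs in each group of Foxr2 alone.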

How the data were processed

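Nuclei of 3 libraries were profiled for RNA and ATAC, and samples were grouped by the genotype in the labels. The deposited values are counts that the authors obtained with Cell Ranger ARC 2.0.0 on mm10 plus vector sequences: UMIs for each gene, and transposition events for each peak. Cells and peaks were called in each library, and nothing was normalized. The tables held 13 vector rows beside the genes. Peak counts were even in 80.7% and 82.9% of entries and were divided by 2 to give fragments.

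Nuclei with at least 400 genes, at least 400 fragments in peaks, at most 5% mitochondrial UMIs and values below the upper limits of the study were kept. Of those, doublets called by Scrublet in scanpy 1.11.5 (299, 3.43%, and 529, 5.97%) were removed, which left 8413 of 10379 and 8327 of 10096 barcodes. Joint Leiden clustering (leidenalg 0.10.2, resolution 0.5) used 2000 variable genes, 30 components and 20 neighbours, without integration, vector rows, network genes, both lists, Foxr2, Trp53, Mki67 or Top2a. A class needed at least 3 of 8 markers past 2-fold with a median log2 fold of 1 or more, which had to be 1 above that of every other kind of cell (glia counted as 1 kind). A cluster of low UMIs was named only with a marker among its 10 leading genes. Of 4 rankings of leading genes, 3 left cluster 0 unnamed. The fourth, by fold over the other nuclei of the library, was chosen after this was seen, and naming thresholds were also set after the data were seen.

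UMIs were summed per class and library. Exact 95% Poisson intervals (scipy 1.17.1) were computed for counts and ratios. The floor is 3 counts, and no fold is given where both sides are at or under it. The genes named were the 10 members, and from each list the 2 highest and 2 lowest past 2-fold. The members and lists were chosen with earlier results of these data known. Counts were also simulated with counting error only, and 200 genes of at least 5 CPM were changed by log2 ratios of 2 or 3 in size. All 200 changed genes of each set were recovered (100%). Of unchanged genes, 0.145% passed 2-fold for COP-like over oligodendrocyte-like (11921 genes) and 0.0255% for the vector split (11986 genes). Recovery of changes near 2-fold, and spread between nuclei or libraries, were not tested. Alternatives covered filters, doublets, resolution, scaling, removal of nuclei with a UMI of Mki67 or Top2a, the vector call and the promoter window.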

Additional observations from a re-analysis of the deposited data

How the results depend on the processing

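No paired analysis was possible because each genotype had 1 library with counts and no test was made. Of 105 alternative values of the main results, 89 lay within the interval of the reported value, or within 1.5 times of a count. Of these, Myc by vector count turned from −0.11 to 0.23 with the mean CPM of nuclei, and Mycn from 0.55 to −0.18 with minimums of 1000 and to −0.47 with at least 4 ATAC counts. The count of members past 2-fold between COP-like and oligodendrocyte-like nuclei was 2 in place of 1 with minimums of 1000 genes and fragments, with limits on peak counts, without Mki67 or Top2a nuclei and at 1 CPM. Between libraries, oligodendrocyte-like nuclei gave 3 with minimums of 1000, 2 with doublets kept and 2 at 1 CPM in place of 1, neuron-like nuclei 3 at 1 CPM in place of 1, immune-like nuclei 1 with doublets kept in place of 3, and 2 with minimums of 1000 (Mycl and Mxd4), limits on peak counts, Leiden resolution 1, the mean CPM of nuclei or at least 10 CPM, and astrocyte-like nuclei 3 with cluster 20 against cluster 11 in place of 5. With a vector call by GFP UMI, 1 member was past 2-fold in place of 0, also when stratified by class, where 13.8% of all genes were past 2-fold higher, and 2.61% when stratified; Myc was at 1.64 and 1.02 in place of −0.11, and the Myc promoter at 0.65 in place of 0.18. Stratified by class, the Myc promoter was at −0.08 by ATAC counts. The library ratio of Myc in immune-like nuclei turned from −1.15 to 0.04 with minimums of 1000. Apart from the vector call by GFP and the cluster 20 comparison, shares of all genes past 2-fold were not computed under these alternatives. Those counts of members therefore cannot be set against a background. The causes were not tested. Both the stratified GFP call and the cluster 20 comparison were chosen after the data were seen. Few UMIs limit what can be read for Mycn, with at most 33 in a class.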

Other observations

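In Foxr2 alone, no peak was called on the vector in replicate 1, so the nuclei were divided by a UMI of GFP instead. Of 3623 glia-like nuclei, 226 had GFP and 3397 had none, with Foxr2 at 63.4 and 3.22 CPM. Mxd1 was at 12.4 CPM with GFP (8 UMIs) and 31.2 CPM without (165 UMIs), a log2 ratio of −1.34 [−2.57, −0.32]. Without cluster 0, whose name is uncertain, it was −1.28 [−2.79, −0.06] from 6 and 53 UMIs in 94 and 508 nuclei. The same 6 UMIs lie in the 81 astrocyte-like nuclei among those 94. Over all genes, 14.9% were past 2-fold higher and 7.57% lower with GFP, and without cluster 0 7.10% and 9.56%. Mga and Mxd4 had log2 ratios of −0.42 [−0.83, −0.03] and −0.39 [−0.77, −0.03], and without cluster 0 of −0.43 [−0.92, 0.04] and −0.25 [−0.78, 0.25]. Mnt had a log2 ratio of 1.03 [−0.02, 1.96] with cluster 0 and of 0.28 [−1.34, 1.67] without it. Mycl was at 7.73 CPM with GFP (5 UMIs) and 2.84 CPM without (15 UMIs), a log2 ratio of 1.44 [−0.37, 2.98]. Without cluster 0 the Mycl ratio was 0.38 [−1.45, 1.93]. Myc had 1 UMI with GFP and 6 without, which allows no reading of its direction. Median UMIs were 1862 with and 1245 without GFP. Astrocyte markers summed to 6787 and 3267 CPM, oligodendrocyte markers to 4499 and 9646 CPM, and neuron markers to 2723 and 1244 CPM. Without cluster 0, OPC markers summed to 1255 and 3520 CPM and neuron markers to 3016 and 1975 CPM. Whether these differences bear on the ratios was not tested.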
